A study of Mus musculus with 18 samples.

Results

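Granzymes and cytotoxic effector genes were followed in FACS-purified regulatory T cells (Tregs) that lacked or retained CD25, the alpha chain of the IL-2 receptor encoded by *Il2ra*. The set holds 10 genes of the 50600 in the count table, chosen by symbol: the granzymes *Gzma*, *Gzmb*, *Gzmk* and *Gzmm*, the pore and granule genes *Prf1*, *Nkg7* and *Srgn*, the death ligand *Fasl*, and the intracellular serpins *Serpinb9* and *Serpinb6b*. Granzymes are serine proteases stored in secretory granules on a serglycin matrix (*Srgn*). Perforin (*Prf1*) opens the membrane of a target cell so that granzymes reach its cytosol, where granzyme B cleaves caspases and their substrates. NKG7 is a granule membrane protein of cytotoxic cells, Fas ligand kills through a receptor instead of granules, and SERPINB9 inhibits granzyme B inside the cell that makes it. Cytotoxic T cells and NK cells are the main users of these genes, and activated Tregs also use granzyme B against other lymphocytes.

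RNA-seq counts covered 18 C57BL/6 mice, each giving 1 sample of Foxp3+ Tregs. Thymic Tregs came from 5 CD25 KO mice (CD25 flox alleles with YFP/Cre at the *Foxp3* locus, so deletion followed *Foxp3* expression) and from 5 Foxp3/RFP mice as WT, all at 3 to 4 weeks of age. The thymic KO mice were "cured", which means that they had been given WT splenocytes intravenously as newborns against autoimmunity, and they carried a different *Foxp3* reporter allele from the WT mice. Splenic Tregs came from 4 CD25flox/Foxp3eGFP-Cre-ERT2/R26Y mice as KO, in which tamoxifen activates the Cre and a YFP reporter, and from 4 reporter mice with WT CD25. Tamoxifen was given at 7 to 10 weeks of age and splenic Tregs were collected 10 to 14 days later. The column headers of the counts bear a different date for each tissue, taken here as a batch. Tissue, age, mouse model, tamoxifen and this batch cannot be told apart. Within the thymus, CD25 genotype cannot be told apart from the cell transfer and the reporter allele.

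Total counts were 17239774 to 23993674 per thymic and 25258341 to 32639570 per splenic sample, and 3 counts, taken as the detection floor, came to at most 0.162 and 0.127 CPM (counts scaled to library size). Levels are CPM scaled by TMM across all samples, and floors cover counting error only. Fold changes are log2 values of CD25 KO over WT with their standard error (SE), and adjusted p-values come from the quasi-likelihood test of edgeR, adjusted over all genes by the Benjamini-Hochberg method. For edgeR fits the SE was derived from the log2 fold change and the F statistic of that test, and the 95% intervals from the SE. Genes with FDR < 0.01 are called DE. *Il2ra* itself was 526–683 CPM in thymic WT and 481–534 CPM in splenic WT Tregs. In splenic KO Tregs it was 166–208 CPM, whereas in thymic KO Tregs it was 95.2–105 CPM in 3 mice, 236 CPM in mouse 4 and 288 CPM in mouse 2. The KO allele lacks exon 4 and the counts cover the whole gene, so these levels do not measure deletion directly. *Foxp3*, the defining Treg gene, ranged from 274 to 579 CPM over the thymic and from 206 to 340 CPM over the splenic mice. It fell in KO Tregs by 0.74 (SE 0.0973) and 0.55 (SE 0.0554) on the log2 scale, and the sum of 6 Treg markers was 2853–3595 and 2893–3442 CPM in thymic and 2777–2959 and 3209–3604 CPM in splenic WT and KO mice. The largest part was *Ikzf2*, at 1339 and 1816 CPM in mean in thymic WT and KO mice (log2 fold change 0.44, not DE). The other markers fell in the thymus: *Cd3e* (-0.43) and *Tnfrsf18* (-0.44) were DE, *Ctla4* (-0.47) and *Cd4* (-0.24) were not. In the spleen *Ikzf2* (0.37), *Cd4* (0.32) and *Cd3e* (0.24) rose and were DE. Thymic values of the members and counts of the gene lists are given with and without KO mice 2 and 4.

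The sequences before the transcription start of *Gzmb*, *Gzma*, *Gzmk* and *Nkg7*, the members with the largest differences in the spleen, and of *Prf1*, which works with the granzymes but was not DE, are shown from RefSeq on GRCm38.p6 in the 5′ to 3′ direction of each gene. Capitals mark matches, on either strand, to motifs of factors active in T cells: TTCNNNGAA for STAT, TGTGGT for RUNX, TGANTCA for AP-1, GGTGTGA for T-box and TGACGTCA for a cyclic AMP response element.
Gzmb, chr14:56262335-56262584, minus strand: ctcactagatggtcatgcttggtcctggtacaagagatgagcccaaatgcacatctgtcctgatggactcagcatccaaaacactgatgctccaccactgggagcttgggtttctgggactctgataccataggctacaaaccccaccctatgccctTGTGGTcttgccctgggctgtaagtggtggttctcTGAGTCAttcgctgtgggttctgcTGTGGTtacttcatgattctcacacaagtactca
Gzma, chr13:113100982-113101231, minus strand: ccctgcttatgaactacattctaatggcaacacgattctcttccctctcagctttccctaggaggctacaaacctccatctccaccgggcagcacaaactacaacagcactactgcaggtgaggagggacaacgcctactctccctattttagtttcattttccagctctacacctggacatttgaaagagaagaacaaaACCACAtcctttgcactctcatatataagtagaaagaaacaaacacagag
Gzmk, chr13:113180966-113181215, minus strand: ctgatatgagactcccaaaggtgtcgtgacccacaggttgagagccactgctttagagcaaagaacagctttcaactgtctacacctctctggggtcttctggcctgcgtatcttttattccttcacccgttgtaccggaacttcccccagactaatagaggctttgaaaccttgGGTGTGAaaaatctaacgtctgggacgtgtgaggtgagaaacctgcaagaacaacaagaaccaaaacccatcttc
Nkg7, chr7:43436888-43437072, plus strand: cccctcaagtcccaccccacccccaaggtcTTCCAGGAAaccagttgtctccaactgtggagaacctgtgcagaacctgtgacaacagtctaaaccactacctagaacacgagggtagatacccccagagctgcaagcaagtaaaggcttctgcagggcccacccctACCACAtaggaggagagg
Prf1, chr10:61297586-61297832, plus strand: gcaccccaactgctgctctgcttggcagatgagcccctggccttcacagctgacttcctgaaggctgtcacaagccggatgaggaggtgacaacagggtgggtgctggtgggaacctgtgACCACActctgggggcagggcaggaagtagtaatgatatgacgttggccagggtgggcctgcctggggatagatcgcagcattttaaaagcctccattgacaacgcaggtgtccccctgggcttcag
Each run covers up to 250 bases, and where the GENCODE start falls within it the bases past that start were left out (65 for *Nkg7* and 3 for *Prf1*). The *Gzmk* run precedes the RefSeq start but lies wholly inside the longer GENCODE gene. The *Gzmb* sequence held RUNX letters at 93 to 88 and at 34 to 29 bases before the RefSeq start, with an AP-1 match between them at 58 to 52 bases. Among all 10 members, whose RefSeq windows of 250 bases were searched in full, RUNX letters were found in 6 (*Gzma*, *Gzmb*, *Gzmm*, *Prf1*, *Nkg7* and *Srgn*), against 14.0% of the 32851 promoter windows of all genes. T-box letters were found in 3 members (*Gzmk*, *Gzmm* and *Nkg7*, where the match lies in the part left out) and 3.33% of windows, STAT letters in 2 (*Gzmm* and *Nkg7*) and 7.02%, AP-1 letters in *Gzmb* alone and 6.75%, and the cyclic AMP element in 0 and 1.55%. Some members have several windows, whereas the shares of all genes are per window. The RUNX match of *Srgn* and the T-box match of *Gzmm* lie only in a window inside the GENCODE gene, not in the one at its start. A match of letters is a description and not a binding site.

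In the spleen, CD25 KO Tregs held more transcript of 3 of the 4 granzymes, of the granule genes *Nkg7* and *Srgn* and of *Serpinb6b* than WT Tregs. *Gzmb* differed most, by 10.6-fold. *Gzmm*, *Prf1*, *Fasl* and *Serpinb9* were not DE. Thus 6 of 10 members were DE and all 6 rose, where 9.45% of all 17463 genes tested were DE and 5.90% were DE and higher. The median log2 fold change was 0.61 over the members and -0.0065 over all genes. The levels of 7 members were higher in every KO than in every WT mouse, against 11.8% of all genes.

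*Gzmb* (ENSMUSG00000015437.4, chr14:56258838-56262260 on the minus strand of GRCm38) stood at 5.72, 3.07, 4.59 and 4.38 CPM in the splenic WT mice and at 49.6, 38.0, 56.9 and 45.0 CPM in the splenic KO mice. The groups lay far apart, with the lowest KO mouse well over the highest WT mouse. On the log2 scale the fold change was 3.41 (SE 0.153, adjusted p = 1.52e-09), and the 95% interval of the fold was 8.47 to 13.3. By log2 fold change *Gzmb* ranked 5 and *Gzma* 7 among the 1651 DE genes of the spleen.

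*Gzma* (ENSMUSG00000023132.7, chr13:113093825-113100981, minus strand), which encodes the tryptase granzyme A, was close to the floor in splenic WT Tregs, with 4, 4, 4 and 5 counts or 0.15, 0.14, 0.17 and 0.20 CPM. The KO mice held 0.94, 0.76, 2.78 and 1.35 CPM, from 21 to 74 counts. The groups did not overlap, and KO mouse 3 was the highest. The log2 fold change of 3.09 (SE 0.463, adjusted p = 0.000251) rests on 17 counts in all WT mice together, and its 95% interval ran from 2.10 to 4.07.

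*Gzmk* (ENSMUSG00000042385.14, chr13:113171608-113225908, minus strand), another granzyme of trypsin-like specificity, lies 70627 bp from *Gzma*. Its splenic WT levels were 0.50, 0.54, 0.13 and 0.27 CPM and its splenic KO levels 1.43, 1.55, 2.63 and 0.96 CPM. Every KO mouse was above every WT mouse, and as for *Gzma* KO mouse 3 was the highest. With these levels the log2 fold change was 2.13 (SE 0.387, adjusted p = 0.0012). *Esm1* lies within *Gzmk* on the opposite strand but shares 0 exonic bases with it and had at most 10 counts in any sample.

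*Gzmm* (ENSMUSG00000054206.2, chr10:79689020-79695261, plus strand), a granzyme that cleaves after methionine or leucine, did not share this pattern. It stood at 2.71, 3.10, 2.97 and 2.34 CPM in splenic WT and 4.29, 3.65, 2.36 and 2.76 CPM in splenic KO mice. The groups overlapped, with a log2 fold change of 0.22 (SE 0.194, adjusted p = 0.501). The 95% interval, -0.20 to 0.63, leaves room for a fold of up to 1.55.

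**Figure D1:**
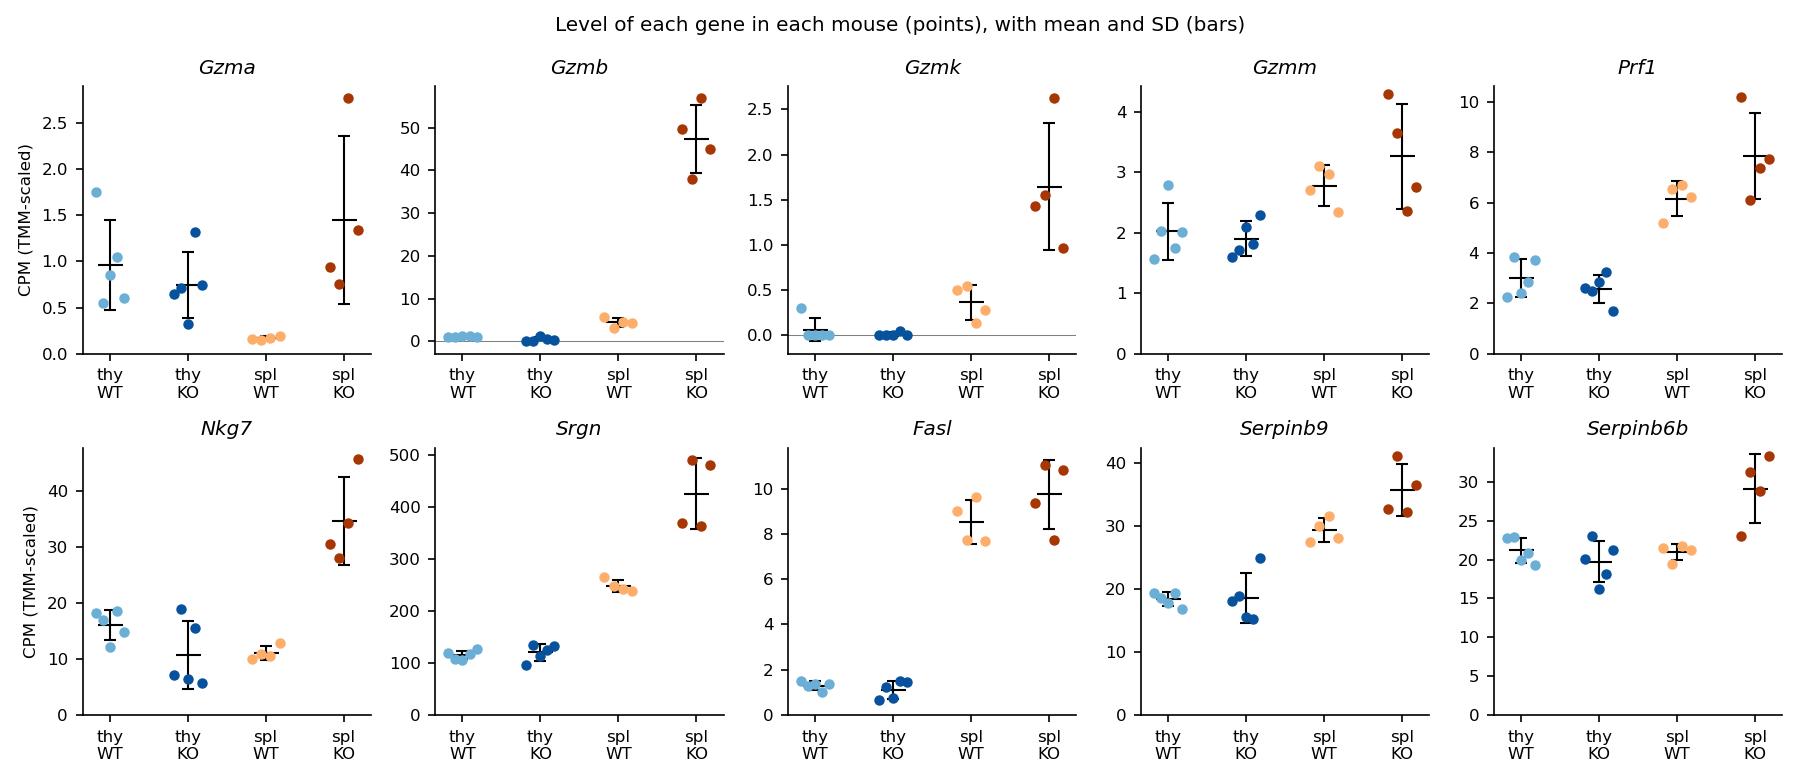
CPM (TMM-scaled, linear axes) of the 10 genes in each mouse, in thymic WT and CD25 KO (thy, n = 5 each) and splenic WT and CD25 KO Tregs (spl, n = 4 each). Points are mice, bars are the mean and SD. *Gzmb*, *Nkg7* and *Srgn* stand apart in splenic KO mice, while the thymic groups overlap for every gene.

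Among the pore and granule genes, *Nkg7* (ENSMUSG00000004612.9, chr7:43437073-43438249, plus strand) was 9.99, 10.8, 10.5 and 12.9 CPM in splenic WT and 30.6, 28.1, 34.2 and 45.7 CPM in splenic KO mice. The groups did not overlap. The log2 fold change was 1.64 (SE 0.129, adjusted p = 6.6e-07), or 3.11-fold. *Srgn* (ENSMUSG00000020077.14, chr10:62493833-62527451, minus strand) rose from 265, 247, 243 and 239 CPM to 369, 490, 363 and 479 CPM. This is the gene of the granule proteoglycan, and its KO mice fell into a lower pair, mice 1 and 3, and a higher pair, mice 2 and 4, both above all WT mice. Its log2 fold change was 0.76 (SE 0.085, adjusted p = 1.77e-05).

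*Prf1* (ENSMUSG00000037202.6, chr10:61297833-61304680, plus strand) was 5.19, 6.53, 6.71 and 6.21 CPM in splenic WT and 10.2, 6.10, 7.39 and 7.72 CPM in splenic KO mice. KO mouse 2 lay within the WT range and the other KO mice above it. The log2 fold change of 0.34 (SE 0.149, adjusted p = 0.139) had a 95% interval of 0.02 to 0.65, far below the difference of *Gzmb*. *Fasl* (ENSMUSG00000000817.10, chr1:161780689-161788495, minus strand), the ligand of the death receptor Fas, was 9.00, 7.72, 9.64 and 7.70 CPM in WT and 9.34, 11.1, 7.73 and 10.8 CPM in KO mice. The groups overlapped, with a log2 fold change of 0.18 (SE 0.123, adjusted p = 0.348) and an interval of -0.08 to 0.44.

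The serpins lie 24183 bp apart on chromosome 13. *Serpinb6b* (ENSMUSG00000042842.10, chr13:32965209-32979067, plus strand) was 21.5, 19.4, 21.7 and 21.3 CPM in splenic WT and 23.1, 31.3, 28.9 and 33.3 CPM in splenic KO mice. All KO mice were higher, mouse 1 only narrowly, and the log2 fold change was 0.46 (SE 0.0924, adjusted p = 0.00247). The call was lost without WT mouse 2 (0.43, adjusted p = 0.0119) or KO mouse 4 (0.40, adjusted p = 0.0102). *Serpinb9* (ENSMUSG00000045827.10, chr13:33003250-33017957, plus strand), the inhibitor of granzyme B, was 27.4, 30.0, 31.6 and 28.1 CPM in WT and 32.6, 41.1, 32.2 and 36.5 CPM in KO mice. The groups did not overlap, but the log2 fold change of 0.27 (SE 0.0778, adjusted p = 0.0254) missed the threshold. It passed without the filter on low counts (adjusted p = 0.00845) and at FDR < 0.05, and 7 members were then called.

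**Figure D2:**
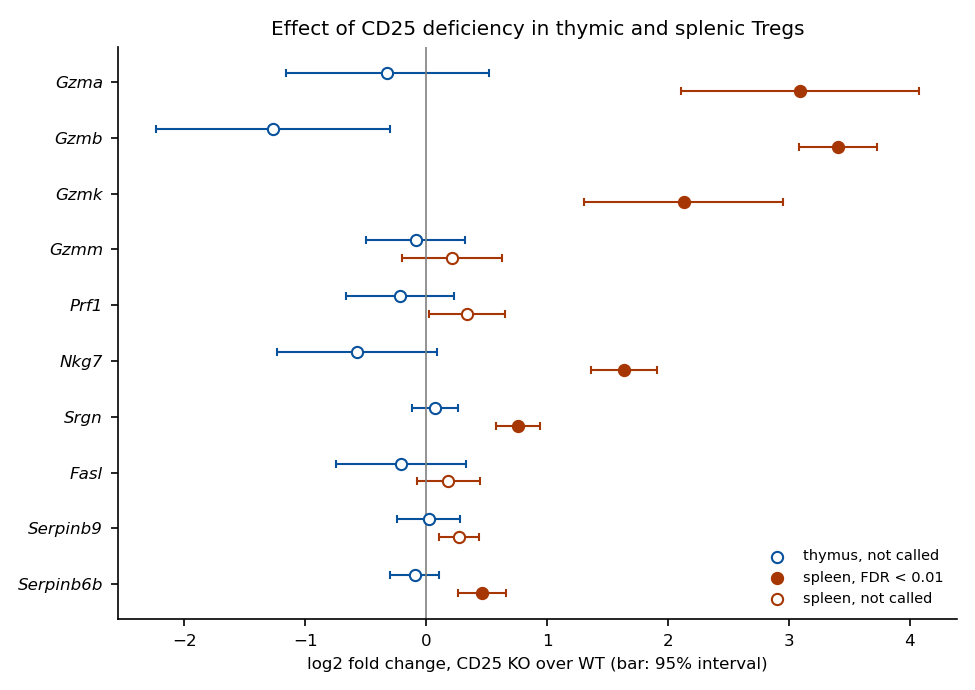
Log2 fold change of CD25 KO over WT (horizontal axis) with its 95% interval for each gene in thymic and splenic Tregs, from edgeR. Filled points are DE at FDR < 0.01, open points are not, and *Gzmk* has no thymic point because it did not pass the filter on low counts. In the spleen 6 genes are filled and all lie right of 0, while 0 thymic points are filled.

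Some markers of other cell types were higher in splenic KO than WT Tregs, while others were level, lower or near the floor. The summed level of 10 NK cell markers was 6.68–9.95 CPM in WT and 13–18 CPM in KO mice, with *Ncr1* and *Klra8* at 0 counts in all splenic samples. Of 3 NK markers tested, *Klrb1c*, the gene of the NK1.1 receptor, rose (log2 fold change 1.90, SE 0.389, adjusted p = 0.0029), from 0.361–2.56 CPM to 3.00–5.78 CPM. Most of the rise of the sum was *Eomes* (4.43 to 9.02 CPM in mean), which is also listed among the regulators and was not DE (adjusted p = 0.0187), while *Tyrobp* was at 2.14 and 1.72 CPM and *Klrd1* at 0.161 and 0.143 CPM. The sum of 6 myeloid markers was 10.2–15.5 CPM in WT and 15.9–20.9 CPM in KO mice. *Lyz2*, lysozyme of phagocytes, rose by 1.03 (SE 0.189, adjusted p = 0.00132), from 6.10 to 12.6 CPM in mean, while *Csf1r* was at 6.38 and 5.47 CPM in mean (log2 fold change -0.24, adjusted p = 0.41) and *Cd14* and *S100a8* were near the floor. CD8 T cell markers, 7.74–9.30 CPM in WT and 8.25–11 CPM in KO mice, gamma delta T cell markers (4.59–6.14 and 3.54–5.74 CPM), mast cell and basophil markers (1.98–3.63 and 2.10–2.98 CPM) and B and plasma cell markers (7.54–9.59 and 7.63–9.23 CPM) overlapped in sum. Of the B cell markers, *Pax5* rose (1.04, SE 0.219, adjusted p = 0.00352), from 1.53 to 3.20 CPM in mean, and *Cd79a* was at 5.61 and 4.15 CPM (-0.45, adjusted p = 0.032). Immature thymocyte markers summed to 26.5–32.3 CPM in WT and 32.9–37.0 CPM in KO mice, nearly all of it *Cd1d1*, with *Rag1* at 0 counts in all splenic samples. The part of these markers in the result was not tested. In bulk samples, fewer or more cells that express a gene and less or more RNA per cell cannot be told apart.

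In the thymus, 0 of 9 members tested were DE, where 6.16% of the 16986 genes tested were. At an unadjusted p under 0.05 there was 1 member, *Gzmb*, against 37.9% of all genes, and DESeq2 also called 0 members. For 0 members did the WT and KO levels lie apart, against 15.8% of all genes. The median log2 fold change was -0.21 over the members and -0.0022 over all genes.

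*Gzmb* was 0.97, 1.14, 1.31, 1.28 and 0.94 CPM in thymic WT mice and 0.15, 0.19, 1.24, 0.50 and 0.27 CPM in thymic KO mice. KO mouse 3 lay within the WT range and the other KO mice, with 3 to 11 counts, lay below it. Over all mice the log2 fold change was -1.27 (SE 0.446, adjusted p = 0.0572), and without KO mouse 3 it was -1.99 (SE 0.329, adjusted p = 0.00668). That mouse had the highest KO value, so leaving it out was bound to strengthen the fall. Over the edgeR fits that each left out 1 mouse, the log2 fold change ran from -1.99 to -1.04. Their adjusted p ran from 0.00668 to 0.114.

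*Nkg7* was 18.1, 16.9, 12.1, 18.6 and 14.8 CPM in thymic WT mice and 7.13, 18.9, 6.37, 15.6 and 5.65 CPM in thymic KO mice. The high values belonged to KO mice 2 and 4, the mice with the most *Il2ra*, and the other KO mice lay below all WT mice. Over all mice the log2 fold change was -0.58 (SE 0.304, adjusted p = 0.187). Without mice 2 and 4 it was -1.32 (SE 0.158, adjusted p = 0.000274), and 1 member was then DE. As these mice had the highest KO values, leaving them out was bound to strengthen the fall. *Gzmb* did not follow *Il2ra* in this way, since its high KO value was in mouse 3, and without mice 2 and 4 its log2 fold change was -1.03 (adjusted p = 0.158).

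**Figure D3:**
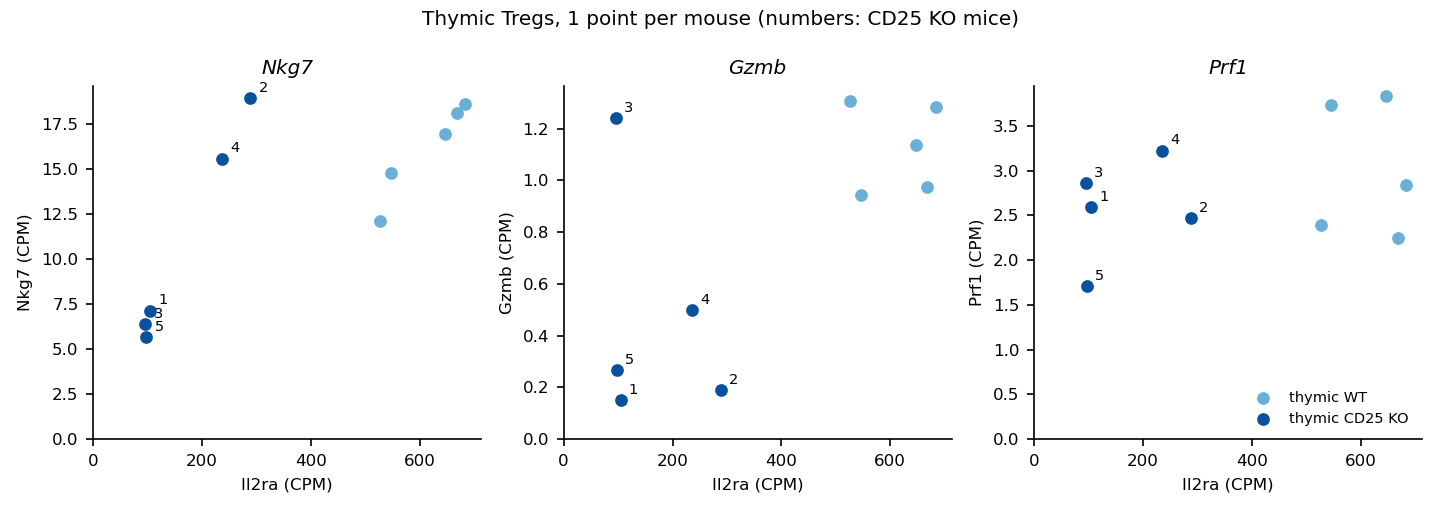
CPM of *Nkg7*, *Gzmb* and *Prf1* (vertical axes) against CPM of *Il2ra* (horizontal axes) in thymic WT and CD25 KO Tregs, 1 point per mouse and the number of each KO mouse beside its point. KO mice 2 and 4, at 288 and 236 CPM of *Il2ra*, have *Nkg7* levels in the WT range, and KO mouse 3 has a *Gzmb* level in the WT range.

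The other thymic members differed by less than the spread among mice. *Gzma* was 0.55–1.75 CPM in WT and 0.32–1.32 CPM in KO mice (log2 fold change -0.32, SE 0.386), and *Gzmm* was 1.56–2.79 and 1.59–2.29 CPM (-0.09, SE 0.189). *Gzmk* had 6 counts in WT mouse 1, 1 count in KO mouse 4 and 0 in the other thymic mice, so it did not pass the filter. *Prf1* was 2.24–3.84 CPM in WT and 1.71–3.22 CPM in KO mice (-0.22, SE 0.207). *Fasl* was 1.01–1.51 and 0.65–1.50 CPM (-0.21, SE 0.248). *Srgn*, abundant in all thymic mice, was 105–125.9 and 95.9–135 CPM (0.07, SE 0.0888). The serpins were near level, with *Serpinb9* at 16.8–19.3 and 15.2–25.0 CPM (0.02, SE 0.121) and *Serpinb6b* at 19.3–22.9 and 16.2–23.1 CPM (-0.10, SE 0.0932). NK markers summed to 6.43–14.2 CPM in thymic WT and 6.24–21.3 CPM in thymic KO mice, CD8 markers to 19.7–52.7 and 20–32 CPM, and immature thymocyte markers to 54.8–151 and 65.7–113 CPM. Mast cell and basophil markers summed to 47.4–68.8 CPM in thymic WT and 49.8–69.5 CPM in thymic KO mice, nearly all of it *Kit* (58.7 and 56.7 CPM in mean). *Mcpt4*, *Tpsb2* and *Cma1* had 0 counts in all thymic samples. *Mcpt8* ran from 0 to 1.17 CPM (at most 24 counts) over the thymic WT mice and had 0 counts in the thymic KO mice. *Cpa3* was at 1.73 and 3.77 CPM in mean (log2 fold change 1.13, adjusted p = 0.0203, not DE). Gamma delta T cell markers summed to 11.2–14.6 and 10.1–18.7 CPM, myeloid markers to 3.86–19 and 1.83–13.1 CPM, and B and plasma cell markers to 7.41–10.4 and 6.55–9.02 CPM. All of these sums overlapped between the thymic groups. Without KO mice 2 and 4 the log2 fold changes were -0.72 for *Gzma*, -0.45 for *Fasl*, -0.32 for *Prf1*, -0.015 for *Gzmm*, -0.0044 for *Srgn*, 0.10 for *Serpinb9* and -0.14 for *Serpinb6b*, and these 7 were again not DE.

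The effect of CD25 deficiency was then compared between the tissues in 1 fit of all 18 mice. The difference (spleen minus thymus) was called for 5 of 10 members, all of them higher in the spleen, where 6.98% of the 18686 genes were called and 4.50% were called and higher. It was largest for *Gzmb*, with a log2 difference of 4.70 (SE 0.439, adjusted p = 9.31e-07), or 5.40 without thymic KO mouse 3. *Gzma* differed by 3.42 (SE 0.657, adjusted p = 0.00156) and *Nkg7* by 2.22 (SE 0.373, adjusted p = 0.000478). Without thymic KO mice 2 and 4 the difference of *Nkg7* was 2.96. Leaving out the highest thymic KO values, as here and for *Gzmb*, was bound to enlarge the difference. *Srgn* differed by 0.70 (SE 0.133, adjusted p = 0.00135). *Serpinb6b* differed by 0.57 (SE 0.141, adjusted p = 0.00925), a call that was lost in 17 of 26 alternatives. For *Gzmk* the difference was 4.11 (SE 1.63, adjusted p = 0.0867) and rests on 7 thymic counts in all, since without WT mouse 1 it was 0.61. *Prf1* (0.57, interval 0.01 to 1.14), *Gzmm* (0.32, -0.26 to 0.90), *Fasl* (0.40, -0.15 to 0.96) and *Serpinb9* (0.26, -0.06 to 0.59) were not called.

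The mix of the 4 granzymes of the set was compared on the scale of CPM per kb of exon, which allows for gene length. *Gzmc*, outside the set, was left out. Its mean was 0.711 CPM in splenic WT, above *Gzma* (0.166) and *Gzmk* (0.359), and 0.391 CPM in splenic KO mice. In splenic WT Tregs the 4 granzymes summed to 5.40 ± 0.684 CPM per kb (SD, n = 4), of which *Gzmb* made up 56.6% ± 8.17 and *Gzmm* 35.4% ± 6.65. In splenic KO Tregs the sum was 37.8 ± 6.41 CPM per kb and *Gzmb* made up 87.2% ± 1.37 (range 85.9–88.9%), with *Gzmm* at 6.06% ± 2.07. *Gzma* and *Gzmk* stayed small, at 3.66% ± 1.70 and 3.08% ± 0.974 in splenic KO mice. In the thymus *Gzmm* was the largest part, 44.3% ± 10.6 of 3.16 ± 0.506 CPM per kb in WT and 55.3% ± 7.88 of 2.37 ± 0.449 CPM per kb in KO Tregs (n = 5 each), and *Gzmb* made up 25.2% ± 4.31 and 12.9% ± 11.5. The thymic KO share of *Gzmb* ran from 5.68% to 33.0% and overlapped the WT range of 18.4–29.2%.

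**Figure D4:**
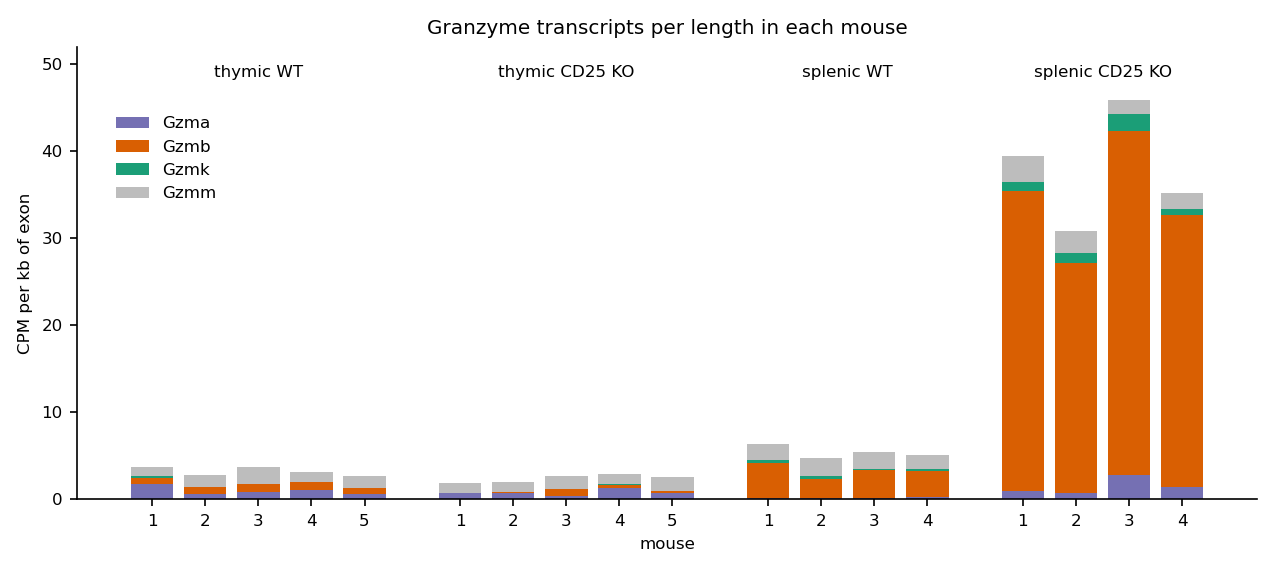
CPM per kb of exon (vertical axis, linear from 0) of *Gzma*, *Gzmb*, *Gzmk* and *Gzmm*, stacked, in each mouse of the 4 groups (horizontal axis). Splenic KO mice reach 30.8–45.9 CPM per kb in sum, nearly all of it *Gzmb*, against 4.77–6.33 in splenic WT mice.

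The ratio of *Gzmb* to *Prf1* per kb was 1.33 ± 0.475 in splenic WT (range 0.845–1.98) and 11.1 ± 2.13 in splenic KO Tregs (8.74–13.9). These ranges did not overlap, as *Gzmb* rose and *Prf1* was not DE. In the thymus the ratio was 0.714 ± 0.216 in WT and 0.317 ± 0.272 in KO Tregs, and the ranges of 0.455–0.985 and 0.104–0.781 overlapped. On the per kb scale *Srgn* was the most abundant member in all 4 groups, at 52.4 ± 3.83, 54.9 ± 7.42, 113 ± 5.18 and 194 ± 31.2 CPM per kb in thymic WT, thymic KO, splenic WT and splenic KO Tregs. *Nkg7* was next in each group, although in splenic KO Tregs (37.9 ± 8.52) its SD spanned the level of *Gzmb* (33.0 ± 5.53), which moved from the sixth place in splenic WT to the third.

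Splenic WT Tregs held more of most members than thymic WT Tregs. Of 10 members, 7 were DE between these groups, where 40.4% of the 18686 genes were, and 6 of them were higher (21.0% of all genes) and 1 lower (19.5%) in the spleen. For 6 members the groups did not overlap, against 45.8% of all genes. *Fasl* was 1.30 ± 0.186 CPM (n = 5) in thymic and 8.51 ± 0.967 CPM (n = 4) in splenic WT Tregs, a log2 difference of 2.72 (SE 0.181, adjusted p = 1.34e-10). *Gzmb* differed by 1.99 (SE 0.274), *Srgn* by 1.13 (SE 0.0937), *Prf1* by 1.05 (SE 0.189) and *Serpinb9* by 0.69 (SE 0.109). *Gzma* went the other way, from 0.962 ± 0.487 CPM in thymic to 0.166 ± 0.0226 CPM in splenic WT Tregs (log2 difference -2.47, SE 0.523, adjusted p = 0.000512). *Gzmk* (2.66, SE 0.791, adjusted p = 0.00793) overlapped between the groups, its call was lost in 13 of 24 alternatives, and without thymic WT mouse 1, the only WT mouse of the thymus with counts, the fitted value was 6.16. *Gzmm*, *Nkg7* and *Serpinb6b* were not DE. Beside these values, immature thymocyte markers summed to 26.5–32.3 CPM in splenic WT against 54.8–151 CPM in thymic WT mice, and CD8 markers to 7.74–9.30 against 19.7–52.7 CPM, and their part in the result was not tested. A further limit is that 34 genes had 0 counts in all splenic samples but at least 100 counts in every thymic sample. The set of 10 has 0 genes among them, and the nearest lies 2.99 Mb from a member.

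By group, *Gzmb*, *Srgn* and *Serpinb9* had their highest means in splenic KO, then splenic WT, then thymic Tregs, although for *Serpinb9* the splenic groups did not differ beyond the threshold. The means of *Gzmk*, *Gzmm*, *Fasl* and *Prf1* had the same order, with *Gzmk* near the floor in the thymus and *Gzmm* called neither between splenic genotypes nor between WT groups. *Fasl* and *Prf1* followed the tissue, with splenic groups above thymic groups and no call between genotypes. *Gzma* had a different order, with splenic KO and both thymic groups (0.32–2.78 CPM over these mice) above splenic WT (0.14–0.20 CPM).

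Other genes of granule killing were counted from a list of 36, of which 35 were found in the table. They are the remaining granzymes, the proteases and carriers that mature granules, the machinery that docks and fuses them, death receptors and substrates of granzymes. In the spleen 28 were tested, and 7 rose and 2 fell, where 9.45% of all genes were DE and 5.90% were DE and higher. The median log2 fold change was 0.04 (all genes -0.0065). *Stx11*, a syntaxin needed for granule fusion, rose from 36.3–53.8 CPM to 73.3–100 CPM (0.93, SE 0.108, adjusted p = 2.52e-05). *Lamp2*, a lysosomal membrane protein, rose by 0.66 (SE 0.0887). *Ctsw*, a cathepsin of cytotoxic lymphocytes, fell from 47.8–54.7 CPM to 28.0–33.0 CPM (-0.71, SE 0.0684, adjusted p = 3.93e-06). *Sytl1*, a Rab27 effector, fell by 0.42 (SE 0.0604).

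In the thymus 28 genes of this list were tested, and 1 rose and 5 fell, where 6.16% of all genes were DE, with a median of -0.17 (all genes -0.0022). Without KO mice 2 and 4, 1 rose and 8 fell, where 11.5% of all genes were DE. *Sytl1* fell from 9.84–11.7 CPM to 4.32–8.31 CPM (-0.93, SE 0.163, adjusted p = 0.00388). *Tnfrsf10b*, the TRAIL receptor, fell by 0.51 (SE 0.107), a call lost without KO mice 2 and 4 (-0.56, adjusted p = 0.013), and *Rab27a*, the GTPase that docks granules, by 0.38 (SE 0.0825). *Lamp2* rose by 0.31 (SE 0.0632). *Sytl1* thus fell and *Lamp2* rose in both tissues, while *Rab27a* rose in the spleen by 0.28 (SE 0.0555, adjusted p = 0.00237). Of the remaining granzymes, *Gzmd*, *Gzme*, *Gzmg* and *Gzmn* had 0 counts in all 18 samples. *Gzmc*, 24182 bp from *Gzmb*, was 0.397–1.13 CPM in splenic WT and 0.263–0.470 CPM in splenic KO mice (-0.86, SE 0.352, adjusted p = 0.11). *Vamp8*, chosen after its values were seen, is listed at 0 in all splenic samples but had at least 100 counts in every thymic sample.

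Transcription factors that direct or restrain the cytotoxic programme in T and NK cells were taken as a list of 12. In the spleen 8 rose and 1 fell, with a median of 0.65, where 9.45% of all genes were DE and 5.90% were DE and higher. *Zeb2*, a factor of terminal effector cells, rose from 2.90–4.26 CPM to 8.55–10.5 CPM (1.37, SE 0.14, adjusted p = 7.5e-06). *Bhlhe40* rose from 72.3–102 CPM to 160–209 CPM (1.08, SE 0.0955). *Tbx21*, which encodes T-bet, rose from 13.3–16.1 CPM to 27.4–30.9 CPM (1.00, SE 0.0775, adjusted p = 6.17e-07). *Bach2*, a repressor that holds T cells in a resting state, fell from 124–169 CPM to 85.7–109 CPM (-0.65, SE 0.0832, adjusted p = 5.72e-05). *Tcf7*, the gene of TCF-1, a factor of resting and memory T cells, was among those that rose (0.24, SE 0.0555, adjusted p = 0.00706).

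In the thymus, 0 factors rose and 3 fell, where 6.16% of all genes were DE, and 0 rose and 2 fell without KO mice 2 and 4 (11.5% of all genes). *Runx3*, a RUNX factor of cytotoxic T cells, fell from 20.5–34.4 CPM to 4.64–9.35 CPM (-1.70, SE 0.189, adjusted p = 0.000355). *Prdm1*, which encodes Blimp-1, fell from 4.19–7.69 CPM to 2.13–3.15 CPM (-1.05, SE 0.182, adjusted p = 0.00366), and without KO mice 2 and 4 it was -0.92 (adjusted p = 0.0103) and not DE. *Irf4* fell from 102–112 CPM to 42.8–77.5 CPM (-0.81, SE 0.151, adjusted p = 0.00497). All 3 rose in the spleen, *Prdm1* by 1.00 (SE 0.0773), *Irf4* by 0.40 (SE 0.0843) and *Runx3* by 0.30 (SE 0.053). The difference between tissues was called for 6 of the 12 factors, 5 higher and 1 lower in the spleen (6.98% of all genes were called and 4.50% called and higher), and was 2.06 (SE 0.193) for *Prdm1*, 2.01 (SE 0.207) for *Runx3* and 1.22 (SE 0.194) for *Irf4*. *Stat5a* and *Stat5b*, which carry the IL-2 receptor signal, were DE in neither tissue.

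**Figure D5:**
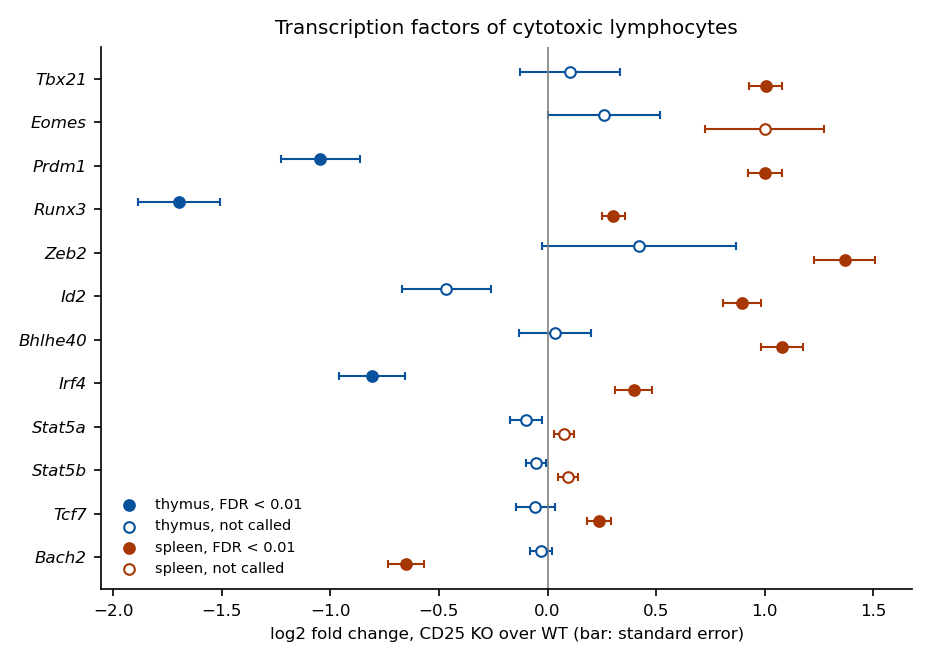
Log2 fold change of CD25 KO over WT (horizontal axis) with its standard error for 12 transcription factors in thymic and splenic Tregs, from edgeR, with points filled at FDR < 0.01. *Prdm1*, *Runx3* and *Irf4* lie left of 0 in the thymus and right of 0 in the spleen.

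The genes whose log2 CPM over the 18 samples was most like that of a member, among 18686 genes, are given as a description by Pearson's r. The samples share 4 groups and a header date within each tissue, so r mostly reflects group levels. *Gzmb* was most like *Gm37347* (0.965), *Icos* (0.962), a costimulatory receptor, and *Pnkd* (0.961). *Nkg7* was most like *Anxa2* (0.975), *Tg* (0.919) and *Gata3* (0.917). *Srgn* was most like *Sh2d1a* (0.988), *Fasl* like *Casp4* (0.988) and *Serpinb9* like *B2m* (0.986), the light chain of MHC class I. For *Prf1* it was *Gstt2* (0.965), for *Gzmk* *Fbn2* (0.959), for *Serpinb6b* *Nab1* (0.938), for *Gzmm* *Pars2* (0.886) and for *Gzma* *Sgms1* (0.868). No member was among the 3 nearest genes of another member.

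Within 100000 bp of the members lie 46 protein-coding genes outside the set. Of 20 tested in the spleen 1 was DE (9.45% of all genes), *Iglon5*, 34655 bp from *Nkg7*, which rose by 0.91 (adjusted p = 0.0015). Of 22 tested in the thymus 2 were DE (6.16% of all genes), *Iglon5* (-2.50, adjusted p = 0.00234) and *Ddx21* near *Srgn* (-0.29, adjusted p = 0.0054).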

How the data were processed

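The authors sorted Foxp3+ Tregs, prepared libraries with KAPA RNA Hyperprep with RiboErase, and sequenced them as 75 bp paired-end reads. Per the study's methods and the submitters' processing notes, reads were aligned to GRCm38 with STAR 2.5.0b and counted on GENCODE M13 genes with featureCounts 1.5.0, and the authors deposited raw counts per gene, without normalization. The strand setting and the handling of reads from near-identical genes are not given in the sources used here. All 18 columns were matched to samples by the labels. Symbols, positions and exonic lengths come from GENCODE M21 (50376 of 50600 identifiers matched), and promoters from RefSeq on GRCm38.p6 (10 of 10 members matched).

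In R 4.3.3, genes were filtered by filterByExpr, scaled by TMM and tested with edgeR 4.0.16 (quasi-likelihood, FDR < 0.01, the study's threshold), within each tissue for KO against WT and over all 18 samples for the difference between tissues and for WT against WT. DESeq2 1.42.0, the study's tool, was an alternative, beside RLE and upper-quartile scaling, 2 other filters, FDR < 0.05, a GC correction, 1 fit of all samples, leaving out mice and a block for the mouse numbers in the thymus. The fits were tested on simulated counts with known changes. Replicates are separate mice. The 10 members, the other lists and the tests were chosen with earlier results of these data known. Every member is named. Of the 2 further lists, the rule names at most the 3 DE genes with the largest fold in each direction and tissue (a gene under it is not reported here); other genes of these lists, namely granzymes at 0, *Gzmc*, *Vamp8*, *Stat5a*, *Stat5b*, *Tcf7* and values in the other tissue, were chosen after their values were seen, and the 3 genes most like each member by Pearson's r were computed.

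Total counts were 17239774 to 23993674 per thymic and 25258341 to 32639570 per splenic sample, so 3 counts correspond to at most 0.162 CPM. Floors cover counting error only, since the reads carry no molecular identifiers.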

Additional observations from a re-analysis of the deposited data

Results flagged for a closer look

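The effect of CD25 deficiency differed between spleen and thymus, by the test of the difference itself in edgeR, for 5 members. The log2 difference, spleen minus thymus, was 4.70 for *Gzmb*, 3.42 for *Gzma*, 2.22 for *Nkg7*, 0.70 for *Srgn* and 0.57 for *Serpinb6b*. The tissues differ in mouse model, age, tamoxifen and batch by header date as well, and these cannot be told apart. Thymic KO and WT mice also differ in cell transfer and reporter allele, which cannot be told apart from CD25 genotype.

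In 2 of 40 sets of 1 member in 1 group, a single mouse lay apart from the rest by Dixon's criterion, with a gap equal to the whole range (a ratio of 1). Both concern *Gzmk* in the thymus, where KO mouse 4 had 0.0454 CPM, a single count, and WT mouse 1 had 0.292 CPM, from 6 counts, while the other thymic mice had 0. Where all other mice of a group have 0 counts, any count gives a ratio of 1. The usual chance rate of about 1 in 20 sets therefore does not apply to these 2.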

How the results depend on the processing

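The number of members called was 6 in the spleen, 5 for the difference between tissues, 7 between WT groups and 0 in the thymus. Leaving out single mice gave 5 to 6, 4 to 5, 6 to 7 and 0 to 1. The thymic count was 1 (*Nkg7*) without KO mice 2 and 4, which had its highest KO values. With at least 10 counts in every sample the difference between tissues gave 3 and WT against WT 4, since 7 members were then tested. The splenic count was 7 without a filter and at FDR < 0.05. It was 4 with at least 10 counts, since *Gzma* and *Gzmk* were then not tested. The numbers of the thymic mice did not pair them (same-number correlations of -0.237 to 0.0876, with 0 of 5 best with its own number). With the replicate block 0 thymic members and 209 genes were called, and with the block and GC correction 240 genes. Splenic numbers follow only the order of the samples, so no block was fitted there. Over all genes, the thymic count of 1047 became 2730 with DESeq2, 3951 at FDR < 0.05, 2881 in 1 fit of all samples, 2008 without KO mice 2 and 4, and 371 to 428 when WT mouse 2, 3 or 5 or KO mouse 1 or 3 was left out. The splenic count of 1651 became 795 in 1 fit of all samples, 3001 at FDR < 0.05, and 1099 without WT mouse 3. The count of 1305 for the difference between tissues became 2188 with DESeq2, 3149 at FDR < 0.05, 2307 without KO mice 2 and 4, and 817 without splenic KO mouse 2. The cause was not tested. Members that reversed had small log2 values and were not called in either case. In the thymus these were *Gzmm* (0.062 with GC correction and 0.074 with block and GC correction), *Serpinb9* (-0.20, -0.00010 with the block and -0.21 with both) and *Srgn* (-0.0044 without KO mice 2 and 4). Between WT groups, *Serpinb6b* was -0.0056 with RLE, -0.0017 with upper-quartile scaling, -0.0073 with DESeq2 and -0.014 without a filter. Without single mice the ranges were -0.64 to 0.00093 for *Gzma*, -0.16 to 0.055 for *Gzmm* and -0.11 to 0.080 for *Serpinb9* in the thymus, and -0.058 to 0.041 for *Serpinb6b* between WT groups. Of the values of single members under an alternative, 785 kept their direction and side of the threshold, 32 lost their call, 5 gained it and 27 reversed. Depth limits *Gzma* in splenic WT and *Gzmk* in all thymic samples most.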
